A study of Homo sapiens with 10 samples.

Results

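The genes described here are SGMS2, CREB1, MYOF, ERCC1 and CROCC, 5 of 19970 protein-coding genes on chromosomes 1 to 22 and X. They were chosen by the deposited −log10 q of RNA polymerase II peaks: the 5 strongest that lie away from gene ends and on H3K4me1 fall in or nearest to them. The strength of these 5 peaks is therefore a description, and no test was made on it. The data are CUT&Tag peaks from unedited (labelled WT) hTERT-RPE1 cells, a telomerase-immortalised human retinal pigment epithelial line, grown without any treatment named in the labels. CUT&Tag uses an antibody to bring a transposase to its target, so that DNA near the target is tagged and sequenced. There were 6 libraries for Pol II phosphorylated on serine 5 of its tail and 4 for the histone mark H3K4me1. Peaks were deposited as 2 lists per target, called list 1 and list 2 here after the labels R1 and R2, in which each Pol II list joins 3 libraries and each H3K4me1 list 2. The labels name a single cell line and do not say whether R1 and R2 were separate cultures, so spread between lists may be technical. The line is known to carry an extra copy of part of the long arm of chromosome 10, on which MYOF lies.

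Pol II phosphorylated on serine 5 is the form found at promoters soon after transcription starts, and it also gathers at active enhancers, where short transcripts are made. H3K4me1 is the histone mark best known from enhancers. An enhancer can act on a gene that is not its nearest, so a peak far from gene ends has several candidate genes. SGMS2 makes sphingomyelin from ceramide, CREB1 is the transcription factor that responds to cAMP, and MYOF is a ferlin that helps membranes fuse and reseal. ERCC1 forms with ERCC4 the nuclease that cuts 5′ of a lesion in nucleotide excision repair, and CROCC builds the rootlet that anchors cilia. Each gene is counted below in a pathway list of its own, and a shared pathway was not looked for.

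Promoter sequences are shown for the starts on which the results turn, from RefSeq on GRCh38.p14. Each window runs from 250 bases before to 50 after an annotated start and is written 5′ to 3′ on the gene's strand. All 5 genes were matched, with 9 windows in all. The windows of SGMS2 show all 3 annotated starts: the outer one, a second one 621 and 597 bp from the Pol II summits of lists 1 and 2, and the inner one that lies nearest to the distal peak. The CREB1 window shows its single annotated start, which the Pol II region at the start covers, although the summits lie just downstream of the window. The ERCC1 windows show the one of its 2 inner starts that lies nearer to the Pol II summits there and the outer start that lies nearest to the distal peak. Capitals mark matches to the GC box GGGCGG, the CCAAT box CCAAT, the TATA box TATAAA, the core of the cAMP response element TGACG, the AP-1 site TGANTCA or the ETS site CCGGAAG, on either strand.
SGMS2 outer start, plus strand, chr4:107824313-107824612: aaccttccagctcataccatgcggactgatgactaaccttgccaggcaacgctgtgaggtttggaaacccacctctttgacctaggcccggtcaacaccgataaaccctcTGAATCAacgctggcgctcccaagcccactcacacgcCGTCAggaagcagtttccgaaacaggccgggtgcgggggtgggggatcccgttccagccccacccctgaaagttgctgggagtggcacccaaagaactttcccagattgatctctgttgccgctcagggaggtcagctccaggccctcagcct
SGMS2 second start, plus strand, chr4:107824682-107824981: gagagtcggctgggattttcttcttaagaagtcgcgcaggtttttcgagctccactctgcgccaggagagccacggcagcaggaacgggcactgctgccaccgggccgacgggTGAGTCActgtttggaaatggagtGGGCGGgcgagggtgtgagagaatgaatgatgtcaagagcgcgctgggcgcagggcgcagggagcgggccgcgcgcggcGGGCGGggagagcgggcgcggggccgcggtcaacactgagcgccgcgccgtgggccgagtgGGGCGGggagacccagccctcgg
SGMS2 inner start, plus strand, chr4:107893024-107893323: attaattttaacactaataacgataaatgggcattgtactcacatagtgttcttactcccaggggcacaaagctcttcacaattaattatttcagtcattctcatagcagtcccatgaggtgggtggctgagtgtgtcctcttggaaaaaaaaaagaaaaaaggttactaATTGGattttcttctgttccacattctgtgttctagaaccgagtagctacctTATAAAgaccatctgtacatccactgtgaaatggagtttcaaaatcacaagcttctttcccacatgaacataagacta
CREB1, plus strand, chr2:207529712-207530011: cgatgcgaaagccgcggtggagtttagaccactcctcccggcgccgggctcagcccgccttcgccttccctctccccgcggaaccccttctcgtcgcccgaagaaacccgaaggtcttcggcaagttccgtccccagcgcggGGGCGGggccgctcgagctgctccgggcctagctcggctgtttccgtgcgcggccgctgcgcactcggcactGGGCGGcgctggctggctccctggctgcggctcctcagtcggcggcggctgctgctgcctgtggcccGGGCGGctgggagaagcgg
ERCC1 inner start, minus strand, chr19:45423868-45424167: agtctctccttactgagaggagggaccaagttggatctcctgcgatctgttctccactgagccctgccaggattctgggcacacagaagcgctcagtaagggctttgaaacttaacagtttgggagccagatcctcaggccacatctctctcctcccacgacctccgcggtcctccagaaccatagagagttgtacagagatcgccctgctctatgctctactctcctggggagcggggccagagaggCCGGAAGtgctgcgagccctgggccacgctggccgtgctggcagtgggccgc
ERCC1 outer start, minus strand, chr19:45451498-45451797: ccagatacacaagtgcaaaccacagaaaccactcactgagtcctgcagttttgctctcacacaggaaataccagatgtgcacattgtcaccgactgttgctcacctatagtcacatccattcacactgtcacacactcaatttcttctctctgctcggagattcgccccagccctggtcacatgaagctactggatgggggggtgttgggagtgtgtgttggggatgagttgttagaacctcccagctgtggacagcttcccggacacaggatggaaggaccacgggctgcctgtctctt

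The outer SGMS2 window held an AP-1 match, found in 7.68% of 34961 RefSeq promoter windows, and a TGACG match, found in 24.5%. The second SGMS2 window held 3 GC boxes and an AP-1 match, with 69.3% GC and 35 CpG. The inner SGMS2 window held a TATA box with its first base 28 bases before the start (11.5% of windows hold one) and a CCAAT box (34.6%). Its GC content was 37.3%, with 2 CpG, beside 59.0% and 13 in the outer window and a median of 58.7% and 14 over all windows. CREB1 held 3 GC boxes (45.0% of windows hold 1 or more) in a window of 73.3% GC with 39 CpG. The inner ERCC1 window shown held an ETS site 2 bases before the start (10.3% of windows). That of the other inner start, at 45423528 under the same Pol II peak, held 2 GC boxes, 3 CCAAT boxes and a TGACG match. The outer ERCC1 window held none of the 6 marked motifs. The single MYOF window and the single CROCC window held none of them either. The full cAMP response element TGACGTCA, which contains that core, was in 1.85% of windows and in none of the 9. The E box CANNTG (68.7%) and the TEAD site GGAATG (14.0%) were searched too and are not marked. A match is a description of letters, not of binding.

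A window of the gene model plus 150 kb on each side was then mapped for each gene. A region joins overlapping peaks of a target and holds at least 1 from each list. It is called distal when no end of any annotated gene lies within 2 kb. The 5 windows held 76 Pol II regions, 48 of them distal (63.2%), close to the 63.0% of all 30981 Pol II regions. In each window the strongest Pol II region by −log10 q was distal, as the choice of genes fixed, beside 47.3% of 18009 coding windows with Pol II. H3K4me1 overlapped 40 of the 48 distal regions (83.3%), beside 89.2% of all distal Pol II regions, and 23 of the 28 near gene ends. The windows held 155 H3K4me1 regions, 92 of them without Pol II. For the gene-end regions on H3K4me1 and for H3K4me1 without Pol II, no share over all regions is given here. The median window of a protein-coding gene held 6 Pol II regions, 3 of them distal. SGMS2 had 9 and 4, CREB1 15 and 10, MYOF 18 and 16, ERCC1 21 and 10, and CROCC 13 and 8. Fewer distal regions than around MYOF stood in 99.2% of protein-coding windows, and fewer than around SGMS2 in 60.8%. Longer genes have longer windows: the MYOF window spanned 475.9 kb and that of ERCC1 344.2 kb.

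**Figure D1:**
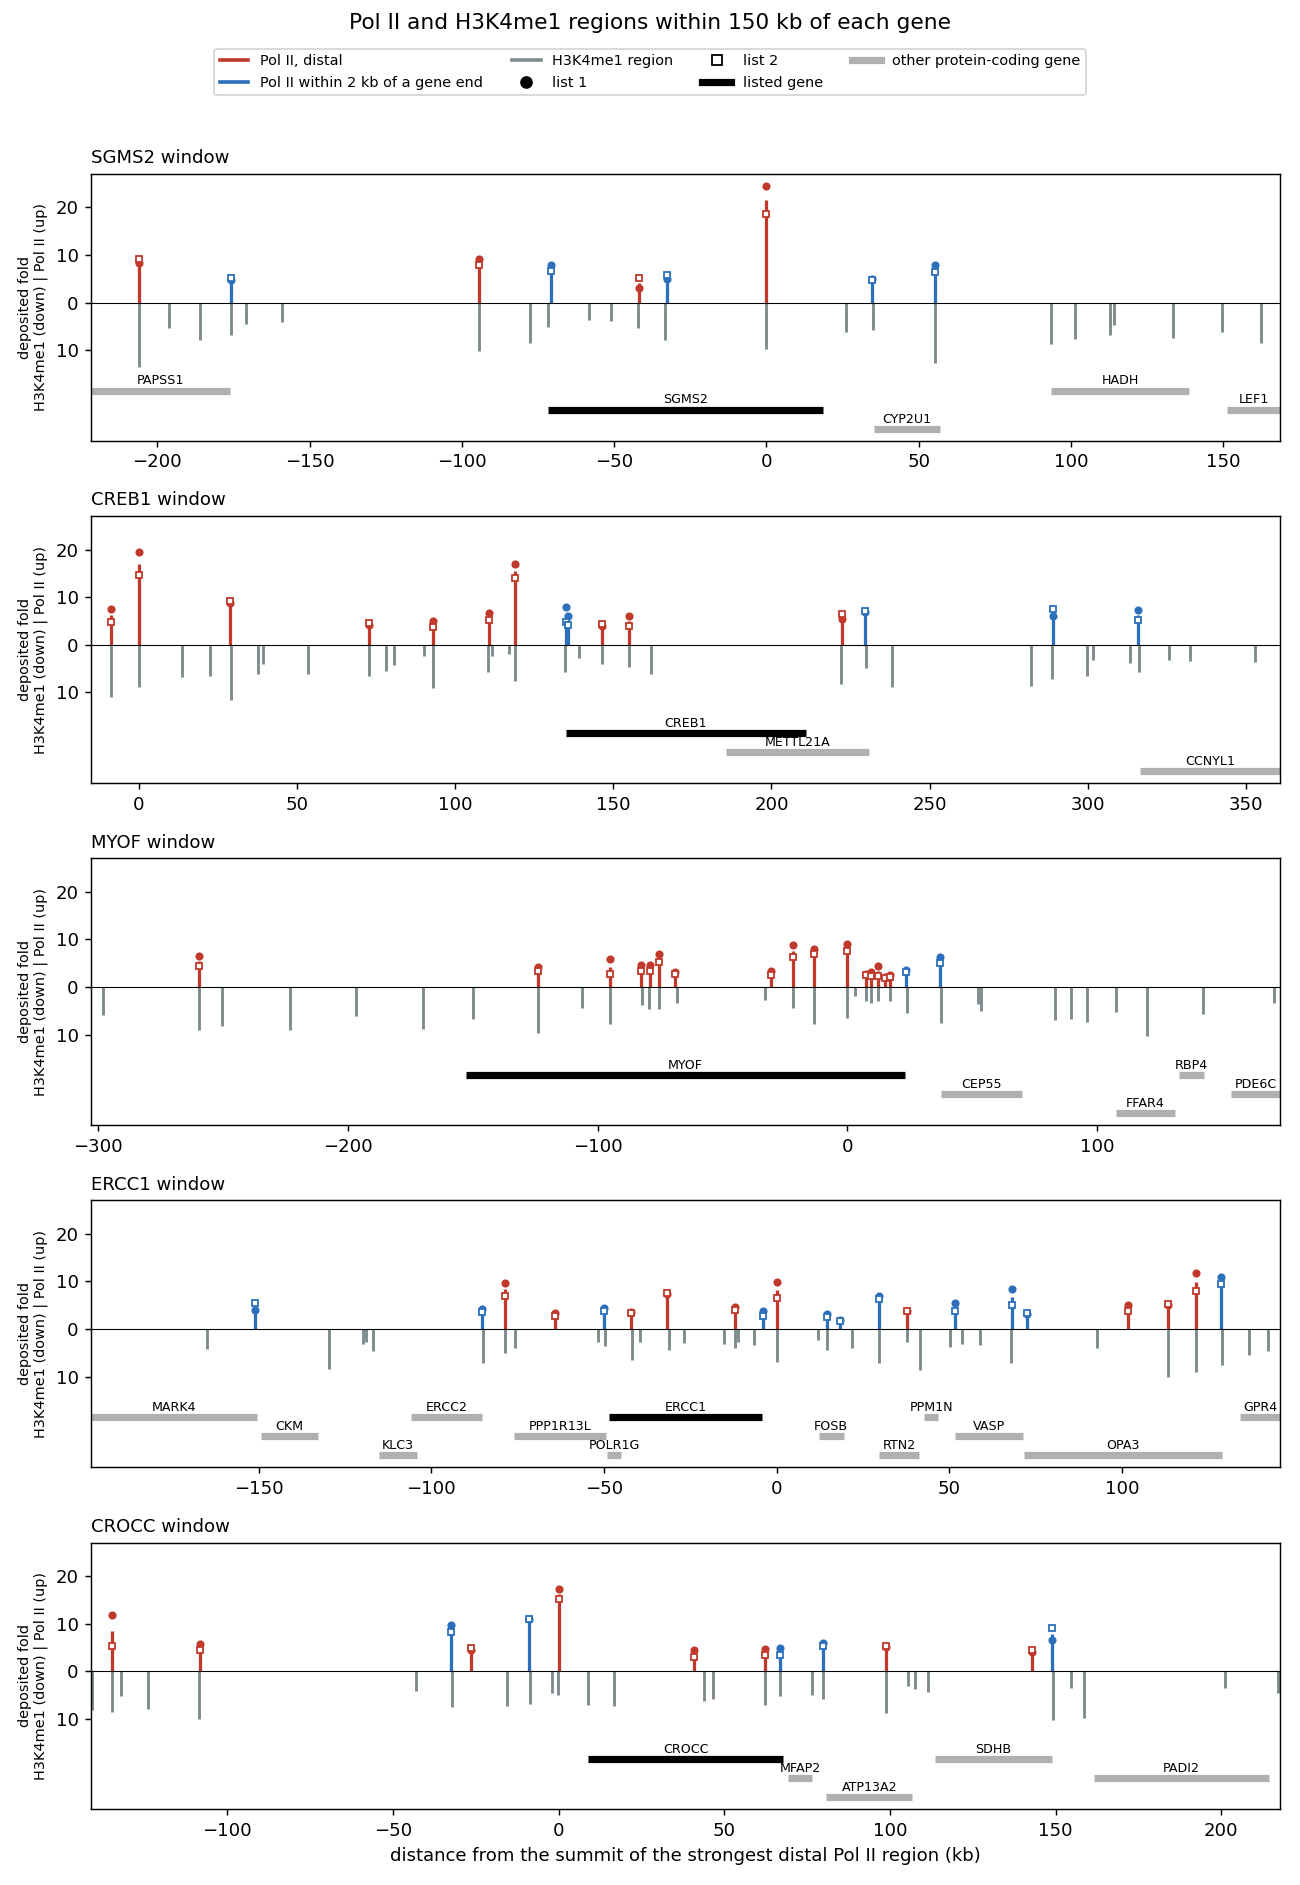
Deposited fold of Pol II regions (upward, lines at the mean of both lists, circles for list 1 and squares for list 2) and of H3K4me1 regions (downward, mean of both lists) against distance in kb from the summit of the strongest distal Pol II region, 1 panel per gene, with protein-coding gene models as bars. MYOF has 16 distal regions, most of them inside the gene, and SGMS2 has 4, of which 1 stands at 24.5 and 18.6.

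SGMS2 had 1 tall distal Pol II peak inside the gene and lower peaks elsewhere. The region lay at chr4:107895931-107896779 (hg38, 849 bp), with a deposited fold of 24.5 in list 1 and 18.6 in list 2 and a −log10 q of 157.0 and 149.2. Fold and −log10 q are the authors' own values for each peak, where fold is read as enrichment over the background that their caller used. The other 3 distal regions in the window had folds of at most 9.12 in list 1 and 9.22 in list 2, so neither list placed them near the first. Its own start carried Pol II at 7.96 and 6.67, in a region at chr4:107824573-107825910 whose summits stood 990 and 966 bp inside the gene. The end of the gene model at 107915047 had no Pol II peak in either list. The distal summit lay 3002 bp downstream of the inner start shown above, which itself had no Pol II or H3K4me1 peak of either list within 1 kb. Exon and intron positions were not used, so the peak is placed only between the inner start and the end of the model.

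Around SGMS2 the nearest gene end of any kind belonged to the long noncoding RNA LOC107986298, 7434 bp away, which had no Pol II at an end in either list. The noncoding CYP2U1-AS1, whose model also contains the summit, had Pol II at an end with 4.89 and 5.74. Among protein-coding genes, the nearest end was that of SGMS2 at 18770 bp. CYP2U1, a fatty acid hydroxylase gene, followed at 35272 bp and had Pol II at its start with 5.08 and 4.84, in a peak that also lies at an end of the noncoding LOC124900751. HADH, of mitochondrial fatty acid oxidation, had H3K4me1 at an end but no Pol II, 93612 bp away. LEF1, a Wnt pathway transcription factor gene at the edge of the window, had the same pattern. PAPSS1, which makes the sulfate donor of the cell, had 4.69 and 5.22 at a distance of 176042 bp. The pseudogene RNU6-733P, 28366 bp away, had neither target.

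CREB1 had a pair of strong distal Pol II regions upstream of its start, with no protein-coding gene between them and CREB1. The first, at chr2:207394440-207395710 (1271 bp), had a fold of 19.4 in list 1 and 14.7 in list 2 and lay 134873 bp before the CREB1 start. The second, at chr2:207513548-207514485, had 17.1 and 14.1 and lay 15.9 kb before the start. It ranked 8 among 17394 distal Pol II regions on H3K4me1, 3 places outside the selection, while the first ranked 3. At the CREB1 start, whose promoter is shown above, Pol II had 7.86 and 4.89, with summits 98 and 53 bp from the start. Both distal regions stood above the start in each list, and the fold of list 1 exceeded that of list 2 at all 3 places. A further region just inside the gene, at chr2:207530683-207531221, had 6.05 and 4.19 and overlapped no H3K4me1 region.

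No protein-coding end lay closer to the first CREB1 region than that of CREB1. The nearest annotated end was that of the noncoding LOC105373851, 36569 bp away and outside the window, where both lists had Pol II at an end. LOC124907970, a noncoding gene whose start at 207529597 faces away from that of CREB1, shared the CREB1 start peak, so the owner of that peak cannot be told apart. Within the window, the next protein-coding ends were those of METTL21A, a protein lysine methyltransferase gene (185546 bp), and CCNYL1, a cyclin Y relative (316551 bp). The window begins at 207379962, close to the first region, so coding genes further out on that side were not listed and may lie nearer than these. METTL21A had Pol II near its start with 6.99 and 7.13, and CCNYL1 with 7.38 and 5.25. All 3 protein-coding genes of the window thus had Pol II and H3K4me1 of both lists at an end. Over all protein-coding genes the shares were 39.4% for Pol II and 63.9% for H3K4me1. The pseudogene RPS29P9, 259662 bp away, had neither.

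MYOF stood out among the 5 by the number of Pol II regions within the gene. Of 18 regions in its window, 15 had their summit inside the gene model, and 9 distal regions, the strongest included, lay within 50 kb of it. That one, at chr10:93458658-93459543 (886 bp), had a fold of 9.10 in list 1 and 7.62 in list 2 and lay 23242 bp downstream of the MYOF start. Others inside the gene were chr10:93436028-93438019, with 8.76 and 6.34, and chr10:93445224-93446288, with 8.03 and 6.91. These 3 ranked 42, 122 and 179 among all 30981 Pol II regions by mean percentile of −log10 q. The start itself was covered by a wider and lower region of 2461 bp with 3.65 and 3.06, and its summits lay 12 and 67 bp from the start. Between the start and the strongest region stood 5 distal regions with folds from 1.85 to 4.38.

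H3K4me1 at the MYOF region was among the highest in the genome by −log10 q, with 192.4 in list 1 and 140.0 in list 2, although its fold was 6.70 and 6.48. It ranked 10 of 104482 H3K4me1 regions, and the neighbouring region at chr10:93445259-93446527 ranked 18. MYOF lies on the part of chromosome 10 with an extra copy, and an effect of copy number on these values was not tested. Of the other genes in the window, CEP55, of cytokinesis, had Pol II at its start (6.21 and 4.94) at a distance of 37520 bp. The fatty acid receptor gene FFAR4, 107573 bp away, and RBP4, which encodes the carrier of retinol in blood, had H3K4me1 but no Pol II at an end in either list. PDE6C, a cone photoreceptor gene, had neither target in both lists. The pseudogene RNA5SP323 and the noncoding LOC105378436 were the nearest other genes, at 51456 and 97387 bp, and the latter had Pol II at an end in list 1 alone (4.60).

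ERCC1 lay in the window with the most protein-coding genes of the 5, and its distal region was not the highest there by fold. The region at chr19:45455476-45456538 (1063 bp) had 9.83 in list 1 and 6.56 in list 2 and lay 4235 bp upstream of the outer ERCC1 start. A distal region at chr19:45576875-45577756 inside OPA3 had 11.8 and 8.03, and the OPA3 end had 10.9 and 9.36. Their −log10 q was lower, at 26.6 and 21.4 inside OPA3 and 38.3 and 48.6 at its end, against 132.0 and 137.0 for the ERCC1 region. The outer ERCC1 start had Pol II at 3.80 and 2.83, with no H3K4me1 region of both lists over it. A second region that counts as distal by gene ends, at chr19:45423484-45424701, in fact covers the inner starts of ERCC1. It had 7.45 and 7.54, with summits 55 and 35 bp from the inner start printed above, so the inner start was higher than the outer one in both lists. Set against that inner start, the distal fold was 1.32 times as high in list 1 and 0.870 times in list 2, so the order depended on the list.

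FOSB, the gene of an AP-1 subunit, was the next candidate, with its start 12214 bp from the summit on the other side from ERCC1. FOSB carried a Pol II region of 3559 bp over its body, at chr19:45469368-45472926, beginning 1372 bp after the start. Its fold was low (3.08 and 2.60) beside a −log10 q of 48.7 and 99.3. At the far end of FOSB, Pol II had 1.92 and 1.63. The FOSB promoter window, not printed here, held 2 GC boxes, a TATA box 30 bases before the start and a TGACG match. Further coding genes with Pol II at an end were RTN2, a reticulon gene (6.97 and 6.24, 29512 bp), and VASP, an actin regulator (5.44 and 3.89, 51697 bp). POLR1G, of RNA polymerase I, and PPP1R13L, an inhibitor of p53, shared a peak with 4.39 and 3.71. The repair helicase gene ERCC2 had 4.19 and 3.57, and the kinase gene MARK4 3.92 and 5.53. Thus both lists had Pol II at an end of 9 of 13 coding genes in the window, beside 39.4% of all protein-coding genes. CKM, KLC3, GPR4 and PPM1N had none in either list. The microRNA gene MIR6088 and the selenocysteine tRNA gene TRU-TCA1-1, 19078 and 22819 bp away, had none either.

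CROCC had the first of the 5 regions by −log10 q, while its own start was almost bare of Pol II. The region at chr1:16904611-16905571 (961 bp) had a fold of 17.2 in list 1 and 15.1 in list 2 and a −log10 q of 239.4 and 309.0. It lay 8915 bp before the CROCC model and 16761 bp before the annotated CROCC start at 16921931, which had H3K4me1 (8.40 and 6.39) but no Pol II peak of either list within 1 kb. At the upstream end of the model, at 16914085, Pol II was called in list 1 alone (4.79). The Pol II that both lists placed at an end of CROCC was at its 3′ end, with 4.91 and 3.31. On the other side, 9027 bp from the summit, RNU1-2, a gene of the U1 small nuclear RNA of the spliceosome, carried Pol II at 11.0 and 10.9 with a −log10 q of 167.4 and 276.1. That region ranked 18 among all Pol II regions, against 13 for the distal one. CROCC and U1 genes have near-identical copies elsewhere on chromosome 1, and the sources used here do not say how reads with several matches were placed. The folds at both places are therefore uncertain.

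Of 20 annotated genes in the CROCC window, 15 were not protein-coding. Over chromosomes 1 to 22 and X, 19970 of 59094 annotated genes are protein-coding, so such a majority is common. Besides RNU1-2, both lists placed Pol II at the tRNA gene TRE-TTC3-1, LINC03126, LOC124903860 and RNU1-5P, all of which share a peak with 9.77 and 8.17 and have their nearest ends 31074 to 32516 bp from the summit. TRN-GTT4-1, a tRNA gene 15420 bp away, had H3K4me1 but no Pol II. Of the coding neighbours, MFAP2, of elastic microfibrils, had H3K4me1 but no Pol II at an end (69332 bp). ATP13A2, a lysosomal transporter gene, had 5.88 and 5.28 near its 3′ end (80788 bp), and SDHB, a subunit of succinate dehydrogenase, had 6.51 and 8.97 at its start (113552 bp to its nearest end). PADI2, a peptidylarginine deiminase gene, had neither target.

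The 5 distal regions fell into a group with high fold and a group with moderate fold. SGMS2, CREB1 and CROCC ranked 21, 63 and 88 by mean fold among all 30981 Pol II regions, and MYOF and ERCC1 ranked 4509 and 4883. By mean percentile of −log10 q all 5 were between 13 and 43. The choice of measure therefore decides whether MYOF and ERCC1 stand among the strongest regions at all. Just inside the selection, the ERCC1 region had a mean percentile of 99.901. Just outside, the region ranked 6, on chromosome 10 at 63553155 to 63555029, had 99.870 with a fold of 12.8 and 10.5. List 1 gave the higher fold in all 5 regions, and over all Pol II peaks the median was 5.13 in list 1 against 4.47 in list 2.

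**Figure D2:**
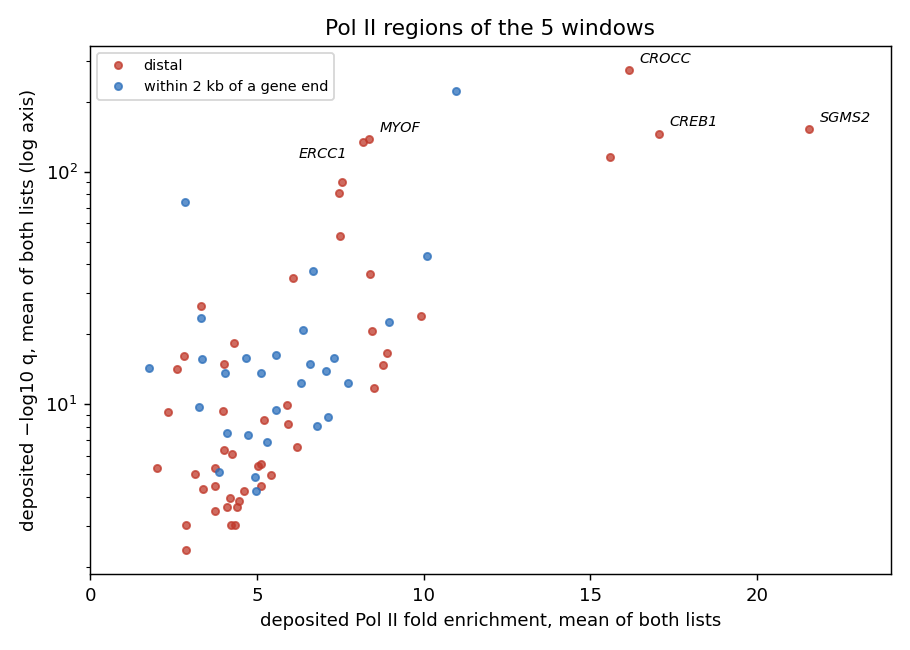
Deposited −log10 q (log axis) against deposited fold of the 76 Pol II regions in the 5 windows, each as the mean of both lists, with distal regions in red, regions within 2 kb of a gene end in blue and the 5 strongest distal regions named. MYOF at 8.36 and ERCC1 at 8.19 sit to the left of CROCC at 16.2, CREB1 at 17.1 and SGMS2 at 21.5.

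Summits, which the choice of genes did not use, lay at nearly the same base in both Pol II lists. They differed by 3 bp at SGMS2, 1 bp at CREB1 and at MYOF, and 0 bp at ERCC1 and at CROCC. Of all 17394 distal regions on H3K4me1, 18.5% had summits within 3 bp, and the median gap was 53 bp. Among the 95 regions ranked 6 to 100, 53 did (55.8%), with a median gap of 2 bp, so close summits were common among strong regions in general. The second CREB1 region, ranked 8, was not among those 53, with a gap of 167 bp.

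The distance between the H3K4me1 and Pol II summits varied among the 5 regions, and it was not computed for other distal regions. The H3K4me1 summit lay 1 and 0 bp from that of Pol II at CREB1 in lists 1 and 2, 5 and 0 bp at ERCC1, and 27 and 6 bp at SGMS2. At MYOF the gap was 63 and 57 bp, and at CROCC 220 and 268 bp, with H3K4me1 on the lower-coordinate side of Pol II in both lists of both genes. H3K4me1 covered the whole Pol II region in 4 of 5 cases (85.8% of all distal regions on H3K4me1) and 94.8% of it at MYOF. Its fold was 9.08 and 10.5 at SGMS2, 8.61 and 9.17 at CREB1, 6.93 and 7.09 at ERCC1, and 5.36 and 4.63 at CROCC. CROCC thus combined the highest Pol II −log10 q of the 5 with the lowest H3K4me1. Its H3K4me1 region ranked 19 of 28 in its own window, at a mean percentile of 73.6, below the median of 85.9 for all distal regions. MYOF ranked 1 of 34 in its window, SGMS2 2 of 24, ERCC1 2 of 35 and CREB1 3 of 34.

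At SGMS2, CREB1 and MYOF the gene's own starts had lower Pol II folds than the distal region in both lists. The distal fold exceeded the strongest peak at the gene's own starts by 3.08 and 2.78 times at SGMS2, 2.47 and 3.01 times at CREB1 and 2.49 and 2.49 times at MYOF. At CROCC no ratio to the annotated start could be formed, since it had no Pol II peak. Against the list 1 peak at the upstream end of its model the distal fold was 3.60 times as high, and list 2 had no peak there. ERCC1 alone had a start that equalled or passed the distal fold in a list. The distal values were used to choose the genes, so these ratios carry no test. Without the 5 regions, the median fold over all windows was 4.40 for 43 distal regions and 5.45 for 28 near gene ends, and the median width 689 bp and 1013 bp. The order of the folds differed by window. Distal regions had the lower median around CREB1 (5.90 against 6.37), MYOF (3.73 against 4.46) and CROCC (4.61 against 7.74), and the higher one around SGMS2 (8.50 against 5.32) and ERCC1 (4.46 against 4.05).

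**Figure D3:**
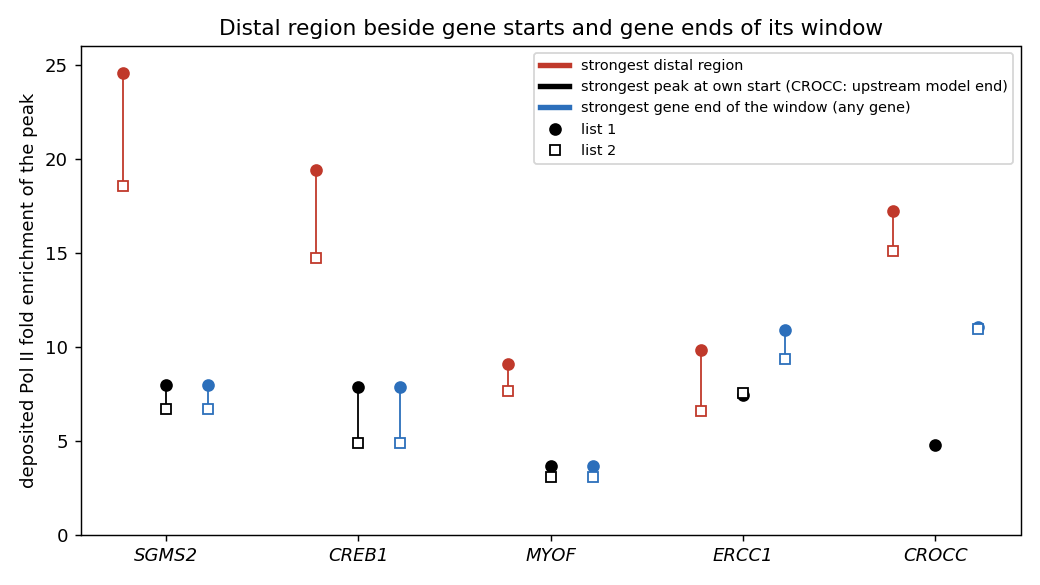
Deposited Pol II fold of the strongest distal region (red), of the strongest peak within 1 kb of a start of the listed gene or, for CROCC, of the upstream end of its model (black) and of the strongest gene end in the window by −log10 q (blue), with circles for list 1 and squares for list 2. At ERCC1 the gene end, that of OPA3, is at 10.9 and 9.36, above the distal region, and at CROCC the black point is a peak of list 1 alone at the model end.

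In both lists, Pol II stood within 1 kb of an end of all 5 genes, beside 39.4% of all protein-coding genes. H3K4me1 of both lists also stood within 1 kb of an end of all 5, beside 63.9%. For ERCC1 that end was the 3′ end (3.75 and 3.39), while the outer start had H3K4me1 in list 1 alone (2.32). The H3K4me1 region near that 3′ end also covers an end of POLR1G and an end of PPP1R13L. Its summits lay 1533 and 937 bp from the ERCC1 end in lists 1 and 2. At the 4 genes other than CROCC, Pol II of both lists stood at a start, which 42.2% of 15811 coding genes with an annotated start had. The nearest protein-coding end was that of the listed gene for each of the 5 regions. The genes were chosen as those in or nearest to the peaks, so this is a description and no finding. Over all distal regions on H3K4me1, the nearest protein-coding gene had Pol II at an end in 48.2% of cases. The summit was inside a protein-coding gene at SGMS2 and MYOF, 2 of 5, beside 64.0% of all distal regions on H3K4me1. None of the 5 lay within 2 kb of an annotated start, which 4.10% of such regions did. The distance to the nearest coding end ran from 4235 bp at ERCC1 to 134873 bp at CREB1, with a median of 30.0 kb over all such regions. Distance assigns no target, and contacts between regions and genes were not analysed here.

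**Figure D4:**
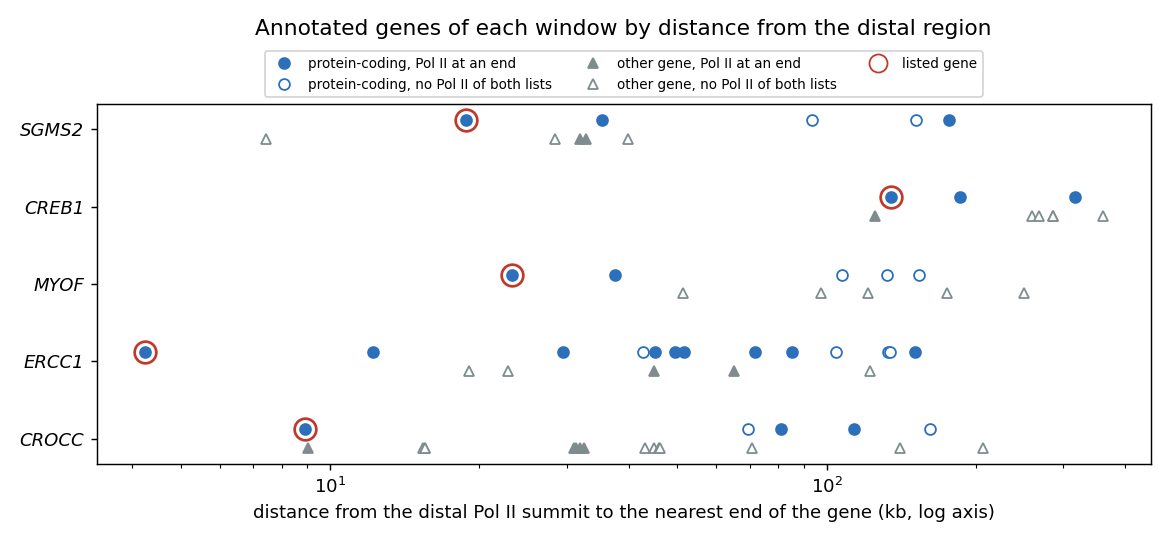
Distance in kb (log axis) from the distal Pol II summit to the nearest end of every annotated gene of each window, with protein-coding genes as circles, other genes as triangles, filled symbols where both lists had Pol II peaks at an end and a ring around the listed gene. The ringed gene is the nearest coding gene in each row, since the genes were chosen in or nearest to the peaks, at 4235 bp for ERCC1 and 134873 bp for CREB1.

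The pathways of the 5 genes differed in how many members had Pol II at an end, where 39.4% is the share over all protein-coding genes. Nucleotide excision repair had 21 of 24 (87.5%), with XPC, of damage recognition, at 8.88 and 5.53 and GTF2H3, a TFIIH subunit, at 11.1 and 8.13, while ERCC3 and UVSSA had none. The ciliary rootlet and centrosome linker list had 11 of 15 (73.3%). CEP250, a centrosome linker protein gene, had 11.9 and 10.1, CEP135 7.79 and 6.50 and the mitotic kinase gene NEK2 7.44 and 6.57, and CROCC2, CEP164, NIN and ODF2 had none. Ferlins and membrane repair had 11 of 17 (64.7%), with the calpain gene CAPN2 at 8.67 and 7.27 the annexin gene ANXA5 at 11.1 and 8.90 and EHD2, of caveolae, at 6.64 and 5.57. MYOF was the only ferlin of the 5 listed with Pol II, since DYSF, OTOF, FER1L5 and FER1L6 had none.

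CREB and its coactivators had Pol II at 12 of 19 (63.2%) and H3K4me1 at 17 (89.5%), where 63.9% of all protein-coding genes had H3K4me1. The H3K4me1 share was 93.3% in the rootlet and linker list and 87.5% in nucleotide excision repair. It was 75% in sphingomyelin and ceramide genes and 58.8% in ferlins and membrane repair. ATF2 had 8.26 and 7.11 and ATF7 8.60 and 9.79, both relatives of CREB1, and CREB3 had 5.11 and 3.64. The coactivator gene CREBBP, CRTC1, CREB5 and PRKAR1A had none in either list. Sphingomyelin and ceramide genes were close to the share of all genes, at 8 of 20 (40%). The ceramide synthase gene CERS5 had 8.85 and 6.70 and the ceramide transporter gene CERT1 9.32 and 7.12. SGMS1, the other sphingomyelin synthase, had Pol II at an end in 1 list only, and SAMD8, CERS1, CERS4, CERS6, SMPD1 and SPHK1 had it in neither. These lists were counted without a test.

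Markers of the labelled cell type and of others were counted the same way, beside the 39.4% of all coding genes with Pol II and 63.9% with H3K4me1 at an end. H3K4me1 stood at an end of 4 of 7 markers of retinal pigment epithelium. It also stood at 4 of 5 epithelial, 3 of 5 mesenchymal and matrix, 2 of 3 blood and 2 of 3 neuron markers. Of the 7 retinal pigment epithelium markers, PMEL had Pol II in both lists (5.36 and 2.98) and BEST1 and OTX2 in 1 list each. RPE65, RLBP1, MITF and TYR had Pol II in neither. Epithelial markers had Pol II at 2 of 5, KRT8 and KRT18, which shared a peak, while CDH1, TJP1 and EPCAM had it in neither list. Mesenchymal and matrix markers had Pol II at 4 of 5, including VIM and FN1, and blood markers at 0 of 3. Neuron markers had it at 2 of 3, with the synaptic gene SNAP25 at 12.7 and 10.5 and TUBB3 at 3.63 and 2.93.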

How the data were processed

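CUT&Tag peak lists for Pol II and H3K4me1 were used as deposited, 2 per target, each merged by the authors from libraries that differ in T number. Per the submitters' processing notes, BWA, SICER and deepTools were used on hg38. Their roles, the peak caller, its threshold and any control are not stated in the labels or headers. Per the deposited narrowPeak layout, column 7 is the authors' fold (ratio) per peak, column 9 their −log10 q, column 10 their summit offset (other), and the deposited score of column 5 is 10 times column 9 in at least 99.9% of peaks. Depth is unknown, since no file gives reads, and no interval is given. Every fold or −log10 q is the authors' own value for a peak.

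Regions were merged intervals holding peaks of both lists (overlap of 1 bp), of which each list gives its strongest peak by −log10 q. Percentiles rank −log10 q within a list on chromosomes 1 to 22 and X, and 166 to 255 peaks per list elsewhere were left out. Genes and starts came from RefSeq (GRCh38.p14), a table that pairs genes with coordinates and one of promoter windows with strand. A target counted as present at an end where each list had a peak within 1 kb of it. Python 3.11.15 with numpy 2.4.6, pandas 2.3.3 and matplotlib 3.10.9 was used, and the code was tested on simulated peaks. Alternatives were single lists, stronger peaks, other windows and distances, and strength by fold. The members, lists and rules were chosen with earlier results of these data known. In each window the rule named the listed gene, genes containing the summit, the 3 nearest coding and 2 nearest other genes, and up to 5 coding genes whose ends had the strongest Pol II. From each pathway list it named up to 3 members with the strongest Pol II and up to 3 without any. Further genes named were chosen after their values were seen.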

Additional observations from a re-analysis of the deposited data

How the results depend on the processing

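Of 32 alternative values for 8 counted results, 30 stayed within 1.5 times the reported value. The choice of genes bore on the counts of nearest coding ends and of windows with a distal strongest region, so their stability is no support. With peaks at or above the median −log10 q of their list, the Pol II regions in the 5 windows fell to 49 and the distal ones to 27, and each of these 27 overlapped H3K4me1. With list 1 or list 2 alone the windows held 100 to 110 Pol II regions, 69 to 71 of them distal. The 5 genes kept Pol II at an end in each list alone, with above-median peaks and within 2 kb, while the count over all protein-coding genes ran from 5399 to 9455. By fold in place of −log10 q, the strongest Pol II region was distal in 4 of 5 windows, the exception being ERCC1. Counting annotated starts as well as gene ends, a choice made after seeing the data, left 46 distal regions of 48. No paired analysis was possible because the results are counts and deposited values from merged lists, with no test. With 2 lists per target the smallest exact permutation p would be 0.333, so differences between targets or places carry none, and peaks below the authors' threshold cannot be seen.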

Other observations

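Pol II peaks of a single list were counted in each window, and no share over all Pol II peaks is given beside them. Around CREB1, 12 of 28 peaks of list 1 overlapped no peak of list 2, and 1 of 16 peaks of list 2 overlapped none of list 1. Around ERCC1 the direction was the other way, with 1 of 26 and 7 of 28, and around MYOF 4 of 24 and 10 of 28. The counts were 2 of 12 and 3 of 12 around SGMS2, and 7 of 20 and 3 of 16 around CROCC. The highest fold of such a peak was 5.99, in list 1 around CROCC, below each of the 5 strongest distal regions in either list.

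A distal region near the edge of the CROCC window, at chr1:16770297-16770946, had a Pol II fold of 11.7 in list 1 and 5.23 in list 2. It lay on the H3K4me1 region ranked 16 of 104482, with 8.26 and 8.86. Around SGMS2 the highest H3K4me1 by −log10 q in both lists was not at the distal Pol II peak but 206 kb away inside PAPSS1 (115 and 95.5, with folds of 13.6 and 13.4), where Pol II had 8.34 and 9.22.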
